A study of Drosophila melanogaster with 23 samples.

Results

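*Poc1* (CG10191, transcript FBtr0075863, chromosome arm 3L) encodes a centriole protein, and its signal was examined in wing imaginal discs of *Myb* mutant and *yw* control *Drosophila melanogaster* larvae. It is 1 of 16637 transcripts tested out of 21051 in the table. The transcript was picked for its steep fall in the mutant on these same arrays, so its levels, its change and its ranks are given as a description and carry no test. The mutant discs came from male larvae (3rd instar) hemizygous for *Myb* MH107, an allele on a w1118 chromosome that was made by mobilizing a P element with Delta2-3 transposase, and these animals die as early pupae. It removes the 5′ end of *Myb* together with the neighbouring gene *AlkB*, and it had been crossed for several generations into the control line. The control discs came from male larvae (3rd instar) of that line, yw67 (y1 w67c23), with yellow bodies and white eyes, so both groups carry a mutant *white* allele. Each genotype had 3 biological replicates. They were hybridized to 12 mutant and 11 control arrays, 4 arrays to a replicate except for the 3 of control replicate 3.

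Centrioles are small microtubule cylinders that form the core of the centrosome, the main organizer of the mitotic spindle poles in most dividing animal cells, and that serve as basal bodies at the base of cilia. Poc1 (proteome of centriole) is a protein of WD40 repeats that sits in the centriole wall from early in assembly, and in flies, ciliates and human cells it has been tied to centriole length and stability. Wing disc cells divide throughout larval growth and carry centrosomes, and only the sensory neurons of the disc later build cilia. Myb, the only protein of its family of transcription factors in the fly, is best known there for its action on genes of mitosis.

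The values are signal intensities after robust multichip analysis (RMA), in which the authors corrected the background, made the distributions of the arrays equal and combined the probes of a transcript into 1 value. Differences are on the log2 scale, mutant minus control. The genotype was checked first on *Myb* itself (FBtr0074169). Its signal was 4586, 4929 and 4717 in mutant replicates 1 to 3, against 15216, 15119 and 16233 in control replicates 1 to 3. The groups lay far apart, with a change of -1.71 (SE 0.06, limma adjusted p = 3.54e-05, and 0.00171 with the replicate number as a block).

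*Poc1* was bright in every control replicate and dim in every mutant one. In mutant discs its signal was 304, 267 and 340 in replicates 1, 2 and 3. In control discs it was 6888, 7166 and 7527. The lowest control replicate stood 4.34 above the highest mutant replicate on the log2 scale, while the replicates of 1 genotype spanned 0.35 in mutant discs and 0.13 in control discs. The means were 8.24 ± 0.17 in mutant discs and 12.81 ± 0.06 in control discs on the log2 scale (SD, n = 3 each), a change of -4.57. Expressed linearly, the signal was 302 in mutant discs, against 7189 in control discs. This is a 23.8-fold lower signal, or 4.2% of the control signal.

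Single arrays showed the same separation. The 12 mutant arrays ran from 218 through a median of 310 to 349, and the 11 control arrays ran from 6628 through a median of 7108 to 7888. The dimmest control array was still 19-fold brighter than the brightest mutant array. Arrays of mutant replicate 1 gave 307, 289, 307 and 313, and those of mutant replicate 3 gave 330, 345, 349 and 335. Mutant replicate 2 was the loosest, at 218, 247, 291 and 326, a 1.5-fold range, whereas no other replicate had a range above 1.09-fold. Arrays of control replicate 1 gave 7093, 6628, 6800 and 7043. Those of control replicate 2 gave 7278, 7108, 7281 and 7000, and those of control replicate 3 gave 7888, 7359 and 7346. The dimmest mutant array was 15.4-fold above 14.158, the single value that the table holds for transcripts without any variation, so the mutant signal was not at that bottom value. No detection limit was estimated, so whether the mutant signal exceeded the background of the arrays was not tested.

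**Figure D1:**
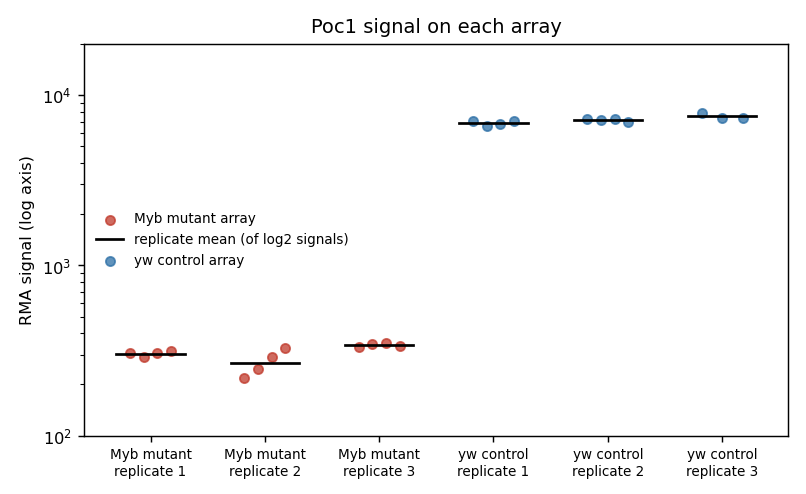
RMA signal of *Poc1* (log axis) on each of the 12 *Myb* mutant arrays (red) and 11 *yw* control arrays (blue), grouped by biological replicate, with a black line at the mean of each replicate on the log2 scale. All mutant arrays lie between 218 and 349 and all control arrays between 6628 and 7888.

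The spread of *Poc1* was ordinary for its brightness. Between mutant replicates its SD was 0.173 on the log2 scale. Among the 772 transcripts whose mutant signal lay within 0.5 log2 of that of *Poc1*, the median SD was 0.185 and 46.9% had a smaller one. Between control replicates its SD was 0.064. Among the 2239 transcripts within 0.5 log2 of its control signal, the median was 0.054 and 59.8% had a smaller SD. The SD between technical arrays, pooled over the 3 replicates of a genotype, was 0.153 for *Poc1* in mutant discs and 0.046 in control discs. The medians were 0.146 and 0.044 among the same 2 sets of transcripts. The pooled mutant value came mainly from replicate 2, as the SDs were 0.051, 0.257 and 0.037 in mutant replicates 1, 2 and 3. Pairing the replicates by number gave changes of -4.5, -4.74 and -4.47 for replicates 1, 2 and 3, or 22.7-, 26.8- and 22.2-fold lower signals in the mutant.

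In rank, *Poc1* lay in the dimmer part of the table in mutant discs and in its bright part in control discs. With the brightest transcript at rank 1, *Poc1* was at rank 9913 of 16637 in mutant discs and at rank 3512 in control discs. It was brighter than 40.4% of transcripts in mutant discs and than 78.9% in control discs. The ranks in single replicates were 9941, 10015 and 9794 in mutant discs and 3653, 3539 and 3369 in control discs. These ranks order array signals. Probes differ in how well they hybridize, so a rank does not measure how many copies of a transcript a disc held.

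Among transcripts of similar brightness in control discs, the fall of *Poc1* was exceeded by 1 other. The 2239 transcripts within 0.5 log2 of its control signal covered signals of 5084 to 10164. Their median change was 0.0, and the middle of the distribution from the 25th to the 75th percentile lay between -0.09 and 0.09. The 1st percentile was at -1.15. In this window 28 transcripts changed by -1 or less, 12 by -2 or less, 5 by -3 or less and 2 by -4 or less, and *Poc1* was the second of these 2. Of the 2239, 349 (15.6%) had all 3 mutant replicates below all 3 control replicates, against 14.5% over all tested transcripts. Over the whole table *Poc1* had the fifth largest fall, at rank 5 of 16637, and also at rank 5 among the 9754 transcripts that reached a signal of 500 in at least 1 biological replicate.

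The transcripts beside *Poc1* in this order include several known from blood cells. *PPO1*, a prophenoloxidase of crystal cells, fell the most in the window, with signals of 114, 117 and 108 in mutant discs and 6949, 10149 and 8607 in control discs. Just after *Poc1* came *Pxn* (FBtr0072950), a matrix peroxidase made by blood cells, at -3.97 (SE 0.15), with signals of 547, 421 and 389 in mutant discs and 6226, 7688 and 7185 in control discs. They were followed by *Hexo2*, a hexosaminidase, at -3.17 (SE 0.15), by *Sr-CI*, a scavenger receptor of blood cells, at -3.15 (SE 0.10), by *CG4382* at -2.99 (SE 0.07) and by *NimC1*, a phagocytosis receptor, at -2.94 (SE 0.14). All 6 passed the threshold of an adjusted p under 0.001 in limma with a signal of at least 500 in at least 1 replicate, as did 0.619% of all tested transcripts in the lower direction. They were taken by the size of their fall in this same contrast, so their passing is a description and no separate result. With the replicate number as a block, *Pxn*, *Hexo2* and *NimC1* no longer passed (adjusted p = 0.00219, 0.0024 and 0.00264). Of the control signals in this set, those of *Poc1* and *CG4382* varied least, with SDs of 0.06 and 0.05 against 0.27 for *PPO1* and 0.29 for *Hexo2*.

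**Figure D2:**
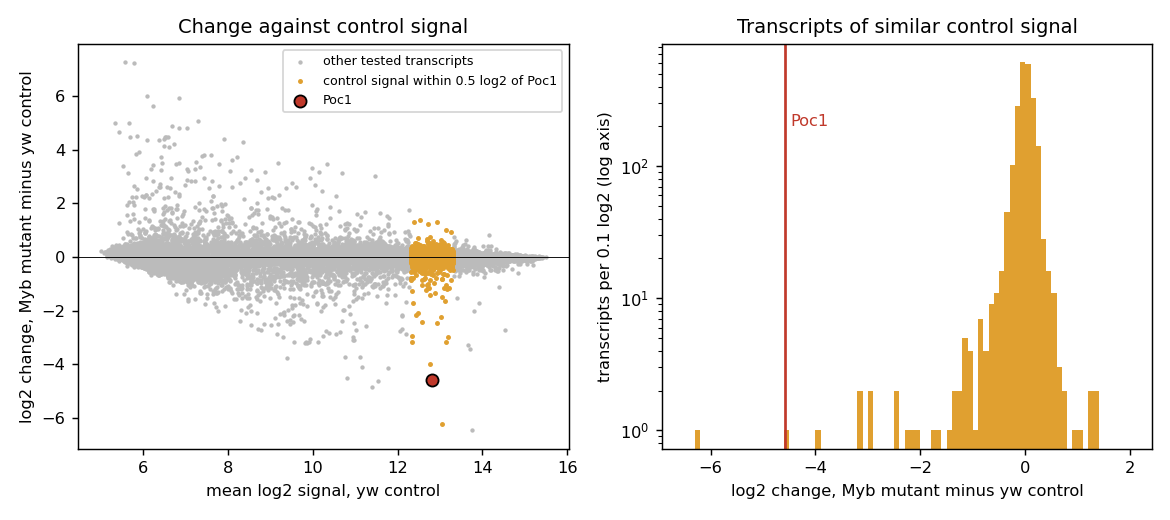
Left, log2 change (*Myb* mutant minus *yw* control) of every tested transcript against its mean log2 control signal, with the 2239 transcripts within 0.5 log2 of *Poc1* in orange and *Poc1* in red. Right, the number of these 2239 transcripts per 0.1 log2 of change (log axis), with a line at -4.57 for *Poc1*; 28 of them lie at -1 or below and 5 at -3 or below.

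Few transcripts crossed the range that *Poc1* crossed. Of the 2239 in the window, 3 had a mutant signal under 500, and these were *PPO1*, *Poc1* and *Pxn*. Of all 16637 transcripts 3, *Poc1* included, were at least as bright as *Poc1* in control discs and at most as bright in mutant discs. The same comparison was made from the mutant side, a choice made after seeing the data. The 772 transcripts that were about as dim as *Poc1* in the mutant, with signals of 214 to 427, had a median control signal of 297 and a median change of 0.05. Only 15 of them had a control signal over 1000, and the highest after *Poc1* was 2461. *Poc1* had the largest fall of the 772. Next, and named after their values were seen, were *Prip*, an aquaporin, at -3.11 (SE 0.15), with signals of 233 in mutant discs and 2013 in control discs, and *Ance-5*, of the angiotensin-converting enzyme family, at -3.08 (SE 0.11), with signals of 234 in mutant discs and 1979 in control discs.

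The transcripts most like *Poc1* in profile were searched over the 6 biological replicates. Each transcript was centred on its own mean, and likeness was the root mean square (RMS) difference from *Poc1*. Since the replicates form 2 clusters by genotype, this measure is governed by the size of the change. The 10 nearest transcripts, of 9 genes, differed from *Poc1* by 0.17 to 0.6 log2, against a median of 2.29 over all tested transcripts, and their changes ran from -4.85 to -3.43. Nearest was *CG11125*, with signals of 92.4, 83.9 and 102 in mutant discs and 2647, 2916 and 2479 in control discs. *Hml*, the clotting protein hemolectin of blood cells, gave 193, 173 and 247 in mutant discs and 3311, 3632 and 3617 in control discs. After these came *Vajk1*, *CG4950*, *Pxn* (FBtr0072950), *CG9119*, *AlkB*, *CG8501*, *fat-spondin* and *Pxn* (FBtr0072951). *AlkB* is the gene deleted along with *Myb*, and *fat-spondin* encodes a secreted matrix protein. All 10 had a larger control SD than *Poc1*, from 0.08 in *Hml* to 0.52 in *CG4950*, against 0.06 in *Poc1*. That SD was ordinary at the control brightness of *Poc1*, where 59.8% of transcripts had a smaller one. Only *Pxn* (FBtr0072951) was brighter than *Poc1* in control discs.

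**Figure D3:**
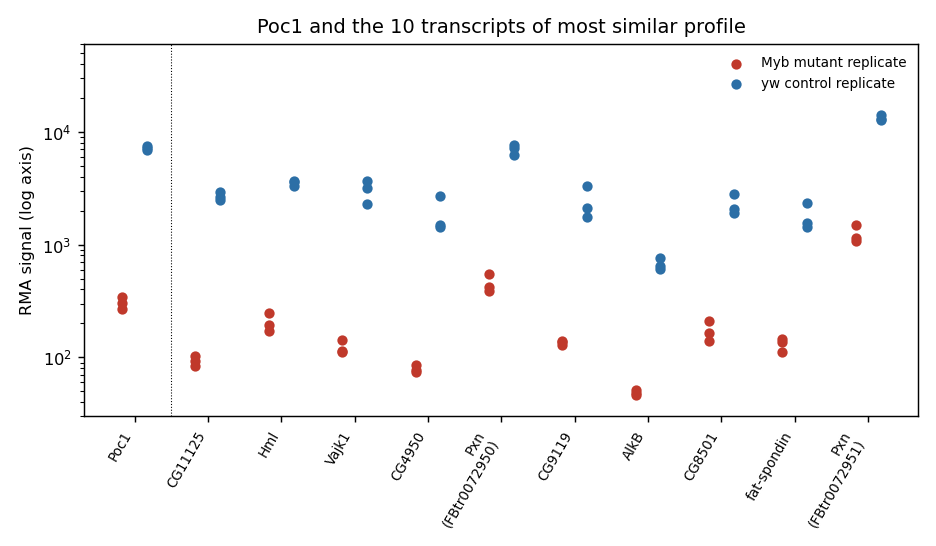
RMA signal (log axis) of *Poc1* and the 10 transcripts closest to it in profile, with the 3 *Myb* mutant replicates in red and the 3 *yw* control replicates in blue, each replicate the mean of its arrays. The 3 control points of *Poc1* lie between 6888 and 7527 and its mutant points between 267 and 340. The groups overlap in none of the 11 transcripts, which follows from choosing them by a change like that of *Poc1* (29.0% of all tested transcripts do not overlap).

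Because these neighbours in size include blood cell genes, the whole list of blood cell markers was read beside *Poc1*. Of 7 markers 6 had an identified transcript, and 5 of these were called lower and 0 higher, against 0.619% of all tested transcripts called lower. Every called transcript was among the 1999 named ones, so that share is a low yardstick for identified markers. *Hml*, *NimC1*, *Pxn* and *PPO1* had already come up above by their falls, so the count is a description and no separate support. The list's median change was -3.77 (all tested transcripts, -0.006, and named transcripts, 0.199). Its summed signal ran from 2280 to 2754 in mutant replicates and from 39193 to 49167 in control replicates. None was at the bottom value of the table, and the dimmest was *He*, with signals of 42, 46.3 and 47.3 in mutant discs and 98.2, 138 and 177 in control discs. With the replicate number as a block 3 markers were called, 3 were called without control replicate 3, and 0 were called under the methods' t-test on the 6 replicate means after adjustment. Fat body markers moved the other way. All 4 identified storage protein genes of 5 listed markers had every mutant replicate above every control replicate (14.6% of all tested transcripts did), with a summed signal of 44696 to 87269 in mutant discs and 3990 to 11438 in control discs, but none was called (limma adjusted p from 0.00458 to 0.0109). The part of either cell type in the fall of *Poc1* was not tested, and in whole discs fewer cells of a type and less RNA per cell cannot be told apart.

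No identified gene of the centriole, other than *Poc1*, shared the size of the change of *Poc1*. Transcripts could be named only through a sheet that the study ranked by p-value, so the identified members of a list lean towards those that differ between genotypes. Of the 1999 named transcripts 53.1% passed an adjusted p under 0.05 with the signal minimum of 500 (24.7% lower and 28.4% higher), and their median change was 0.199, against -0.006 over all tested transcripts. All 234 called transcripts (1.41% of those tested, 0.787% being higher in the mutant) had a name there, so a listed gene without an identified transcript was not called. Of 20 listed genes of centriole assembly, 0 were called in limma at an adjusted p under 0.001, and 3 had an identified transcript, with a median change of -0.29. *asl* (FBtr0078743), whose protein ties the centriole to the material around it and recruits the kinase that starts duplication, had signals of 4177, 4190 and 4387 in mutant discs and 5212, 5206 and 5203 in control discs. Its groups did not overlap, as was so for 29.0% of all tested transcripts, and its change was -0.29 (SE 0.06, limma adjusted p = 0.0271). *Alms1a* (FBtr0070694), a protein of the centriole base, had 2606, 2646 and 2184 in mutant discs and 3204, 3370 and 2960 in control discs, a change of -0.36 (SE 0.10, limma adjusted p = 0.0868). It has the similar copy *Alms1b* beside it, and signal of the 2 genes may not be separable on the array. *Rcd5* (FBtr0073202), found through its effect on the centrosome protein Cnn and also a subunit of a chromatin-modifying complex, had 11637, 12232 and 12005 in mutant discs and 9837, 9983 and 10073 in control discs, a change of 0.26 (SE 0.06, limma adjusted p = 0.0398). At an adjusted p under 0.05 *asl* was lower and *Rcd5* higher, against 6.41% of all tested transcripts in either direction, 2.98% lower and 3.43% higher. With the replicate block neither passed 0.05 (adjusted p = 0.065 for *asl* and 0.0771 for *Rcd5*), while *Alms1a* did (adjusted p = 0.0493).

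Among identified genes of the outer centrosome and of the spindle microtubules around it, most means were lower in the mutant, with 1 call. An identified transcript was found for 10 of 30 listed genes. The mutant mean was the lower one in 9 of the 10, and the median change was -0.45. The median was -0.006 over all tested transcripts and 0.199 over the named ones, so lower means were not the majority among named transcripts. In limma 1 was called lower and 0 higher at an adjusted p under 0.001, against 0.619% and 0.787% of all tested transcripts. This was *aurA*, the mitotic kinase that matures the centrosome, with signals of 1018, 1028 and 1104 in mutant discs and 2204, 2469 and 2156 in control discs, a change of -1.11 (SE 0.08, limma adjusted p = 0.000415, and 0.00712 with the replicate block). Its call was also lost when mutant replicate 1, 2 or 3 or control replicate 1 or 3 was left out. *msd5*, a subunit of the augmin complex that seeds microtubules within the spindle, changed by -1.17 (SE 0.12, limma adjusted p = 0.00246), and *asp*, a protein of the spindle poles, by -0.57 (SE 0.07, limma adjusted p = 0.00409). The other augmin subunits *dgt3*, *dgt4*, *dgt5* and *dgt6* lay between -0.46 and -0.33. *tacc*, a microtubule-binding protein of the centrosome, was measured by 3 transcripts that disagreed, at -0.34, -0.66 and -0.82. The last one (FBtr0089954) passed the threshold (limma adjusted p = 0.000362, and 0.00627 with the replicate block), while the brightest one, which stands for the gene in the counts, did not. *gammaTub37C*, the maternal form of γ-tubulin, was dim in both genotypes, with signals of 117 in mutant discs and 82.4 in control discs, and had a change of 0.51 (SE 0.10, limma adjusted p = 0.0298) below the signal minimum of 500. At an adjusted p under 0.05 and with that minimum, 6 of the 10 were lower and 0 higher, and 3 were lower with the replicate block (*asp*, *aurA* and *msd5*). The share of 6 in 10 lower is to be read beside the 24.7% of named transcripts that passed in the lower direction (53.1% in either).

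Cilium genes, the partners of the basal body, gave no call either. An identified transcript was found for 4 of 32 listed genes, all of which encode subunits of the A complex of intraflagellar transport, which carries cargo back from the ciliary tip. In limma 0 were called at an adjusted p under 0.001, against 1.41% of all tested transcripts, so 0 among so few genes is not a result about them. The median change was 0.32, against 0.199 over the named transcripts. *rempA* had signals of 958, 959 and 777 in mutant discs and 441, 593 and 442 in control discs, a change of 0.88 (SE 0.15, limma adjusted p = 0.0171). *Oseg1* changed by 0.37 (SE 0.06, limma adjusted p = 0.0154), *Oseg6* by 0.27 (SE 0.06, limma adjusted p = 0.0559) and *IFT43* by -0.42 (SE 0.07, limma adjusted p = 0.0149). At an adjusted p under 0.05, 1 of them was lower and 2 were higher, again beside 53.1% of named transcripts in either direction. With the replicate block the lower one, *IFT43*, no longer passed (adjusted p = 0.054).

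**Figure D4:**
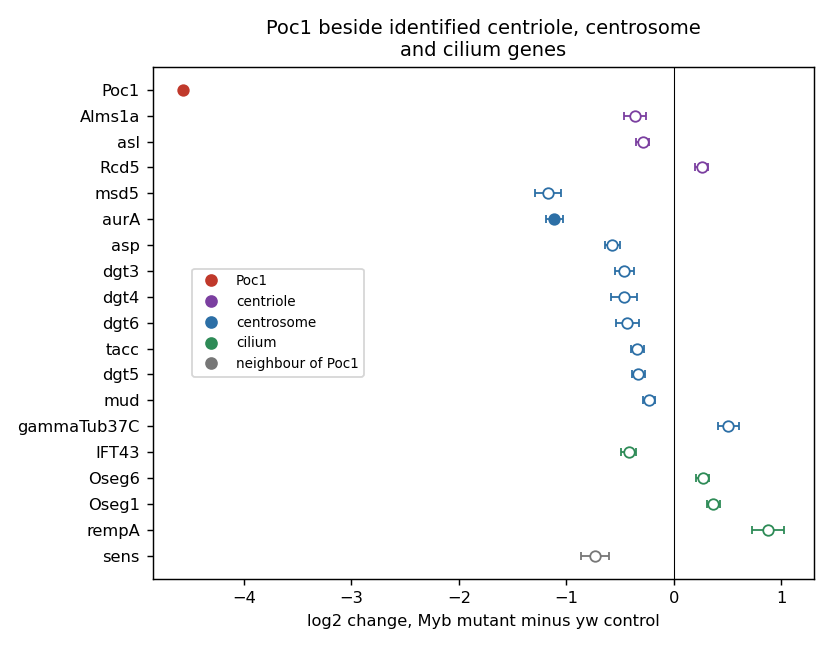
Log2 change (*Myb* mutant minus *yw* control) of *Poc1* beside the identified genes of the centriole, centrosome and cilium lists and its neighbour *sens*. Bars are 1 SE from limma, and filled points are called genes, except *Poc1*. It was chosen by this contrast and has neither SE nor test, so its filled point marks no call. *Poc1* lies at -4.57, and the other genes lie between -1.17 and 0.88.

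Along the chromosome, the fall of *Poc1* was compared with the genes around it in RefSeq order (Release 6). No annotated gene overlapped *Poc1* there, which matters because the labelled cDNA was double-stranded and did not keep the strand. Of the 10 genes on either side, 0 were called in limma at an adjusted p under 0.001, against 1.41% of all tested transcripts. At that share, 0 among so few genes is not a result about the neighbours. Only 1 had an identified transcript, the next gene *sens*. It encodes a zinc finger factor of sensory organ precursors. *sens* (FBtr0075862) had signals of 1840, 1494 and 1305 in mutant discs and 2517, 2631 and 2491 in control discs. Its mutant replicates all lay below its control replicates, as was so for 14.5% of all tested transcripts. Its change was -0.73 (SE 0.13, limma adjusted p = 0.0191). The gene on the other side, *CG10171*, had no identified transcript. RefSeq lists 2 transcripts of *Poc1*, and 1 *Poc1* row was identified on the array.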

How the data were processed

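Random-primed, Cy3-labelled cDNA from wing discs had been hybridized to 1-colour NimbleGen expression arrays. The authors processed the scans by RMA, and the deposited values are signal intensity on a linear scale, 1 per transcript and array, with no flags of detection, slide or scan date analysed here. Array medians ran from 996 to 1060, and no unmapped value column was present (0). Of 21051 transcripts, 4414 held 14.158 on all 23 arrays and were left out.

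Signals were converted to log2 and averaged over technical arrays by title, because repeat arrays share their RNA. These 6 averages entered limma 3.58.1 (R 4.3.3; lmFit, eBayes, two-sided, Benjamini-Hochberg over 16637 transcripts). A call needed an adjusted p under 0.001 and a signal of at least 500 in at least 1 biological replicate, the limits of the study's methods. The fit was tested on simulated data with independent noise and no effect of the replicate number, so that test does not cover such an effect. Whether the biological replicates came from separate dissections is not given in the sources used here. The p-values rest on the spread between these 6 averages, which may not cover that between separate dissections. With arrays averaged, the 3 biological replicates of each genotype limit the precision.

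*Poc1* and the lists (genes of the centriole, centrosome and cilium, neighbours, cell type markers) were chosen with earlier results of these data known. Named genes were *Poc1*, up to 5 transcripts on either side of it in the order of falls, the 10 most alike, and identified list members, where the transcript of highest mean signal stands for a gene; those named outside this rule are marked as chosen after their values were seen. Names came from the identity columns of a supplementary sheet, held in part (1999 transcripts, of which 98.1% matched a RefSeq Release 6 gene). Its columns of the authors' own comparison hold means, fold changes and p-values and were not used.

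Around its own group mean, each mutant replicate was correlated with the control replicate of its number at 0.2, 0.181 and 0.277 (replicates 1, 2 and 3), so the replicate number was also fitted as a block. Its source is not stated in the labels. Other alternatives were ways of averaging technical arrays, centring, a second quantile normalization, a floor of 100, other windows, a threshold of 0.05 and no signal minimum. Further ones were the methods' t-test, here on the 6 averages, and a fit of all arrays that took biological replicate as a random effect (statmod 1.5.0). An intensity trend was also fitted, and each replicate was left out.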

Additional observations from a re-analysis of the deposited data

How the results depend on the processing

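The change of *Poc1* stayed between -4.74 and -4.47 under all 16 alternatives and ranged from -4.66 to -4.48 when 1 replicate was left out. Of these alternatives, 2 could not move it from -4.57. With equal numbers of replicates the block leaves the mean difference as it is, and the floor of 100 lies below the dimmest *Poc1* array, at 218. Its rank of fall stayed at 2 with every replicate left out and under all other alternatives except 2: it was 3 with the window widened to 1 log2 and 1 with the window on the mutant signal, both by construction of the window. Its rank of level ranged from 9871 to 9982 in the mutant and from 3441 to 3585 in the control when 1 replicate was left out.

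Counts of calls depended on the threshold and the fit. Over the whole table, 234 calls became 1066 at an adjusted p under 0.05, 1184 with all arrays and a random block, and 61 with the replicate block. They became 17 under the methods' t-test after adjustment. That t-test was run here on the 6 replicate means. The study's methods do not state whether its own used arrays or replicates, so 17 is not the study's count. They ranged from 70 to 317 with 1 replicate left out, at 70, 71 and 121 when mutant replicate 1, 2 or 3 was dropped and at 106 and 100 when control replicate 1 or 3 was. For centrosome genes the count of 1 became 6 at 0.05 and with all arrays and a random block, 2 in a robust fit with an intensity trend, 0 with the replicate block and under the methods' t-test, and 0 to 1 with 1 replicate left out. For centriole genes 0 became 2 at 0.05 and 1 with the random block. For cilium genes it became 3 and 2, and for neighbours of *Poc1* it became 1 and 1. The cause was not tested.

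The share of lower calls fell to 1 of 17 under the methods' t-test on the 6 replicate means and 18 of 61 with the replicate block, against 103 of 234. Alternatives from the mutant side, by pairs of same-numbered replicates, for blood cell markers and for the list counts at 0.05 with the replicate block were added after seeing the data.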

Other observations

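The remaining marker lists were poorly covered by identified transcripts. Over all tested transcripts 1.41% were called, 0.619% being lower in the mutant. Of 17 wing disc markers 1 was identified, *eyg*, a factor of the notum, with signals of 7832, 8322 and 7787 in the mutant and 8807, 10009 and 9682 in the control, so the labelled tissue was checked on 1 gene. Muscle precursors gave 2 of 3 markers, with a summed signal of 19185 to 23406 in the mutant and 25785 to 29238 in the control, and 0 were called. The tracheal receptor gene *btl* was called lower, with signals of 268, 216 and 205 in the mutant and 559, 580 and 565 in the control (limma adjusted p = 0.000904, and 0.00895 with the replicate block). Its part in the fall of *Poc1* was not tested. Of 4 sensory organ precursor markers, *sens* and *ato* were identified, with a summed signal of 1719 to 2279 in the mutant and 3137 to 3164 in the control, and 0 were called. *Mhc* of differentiated muscle was dim, at 119 in the mutant and 79.2 in the control. Of 6 testis markers *mia* was identified, at 4850 in the mutant and 4281 in the control, and was not called (limma adjusted p = 0.153).

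Further down the order of falls at the brightness of *Poc1* were genes of other tissues and processes, which were chosen after their values were seen. *mei-218*, a gene of meiotic recombination, changed by -2.47 (SE 0.17, limma adjusted p = 0.00036), *pon*, which localizes cell fate determinants in asymmetric division, by -2.14 (SE 0.08, limma adjusted p = 4.22e-05) and *Balat*, a transporter gene, by -2.08 (SE 0.11, limma adjusted p = 0.00012). With the replicate block none of these 3 passed, at adjusted p of 0.0021, 0.00204 and 0.00161. *regucalcin* and *Hr4*, a nuclear receptor, had changes of -2.43 (SE 0.30) and -2.23 (SE 0.37) but were not called. In both, mutant replicate 3 stood apart from the other mutant replicates, at 1858 against 969 and 811 in *regucalcin* and at 959 against 2498 and 2306 in *Hr4*. In *Poc1* the 3 mutant replicates lay within 0.35 log2.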
